A study of Solenopsis invicta with 3 samples.

Results

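The transcript models described here are those that reproduce a reference gene of the fire ant *Solenopsis invicta* in an assembly of antennal RNA reads. An antenna is the main organ of smell of an ant, and worker antennae were the only tissue sampled. A model is a set of exons on 1 strand of the genome assembly Si_gnH, and each model in the deposited file carries a class code that states its relation to the official gene set. Members were all models with the code "=", which means that every intron has the same start and end as in the reference model. A reference model with no intron is matched by overlap alone. This rule was met by 18386 of the 57377 models in the file (32.04%).

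Reads came from 3 libraries of worker antennae, and the file holds models pooled over them. P_Bb was made from polygyne workers (colonies with several queens) that carried both forms of the social supergene, *SB/Sb*. P_BB was made from *SB/SB* workers of the same polygyne colonies, and M_BB from *SB/SB* workers of other, monogyne colonies (a single queen). For each class, cDNA of 4 colonies was amplified colony by colony and then mixed into 1 library, so there were no replicates. The deposited expected counts summed to between 3351500 and 3948464 read pairs per library over 19703 entries. Since models were pooled, no model could be assigned to a class of workers, and social form cannot be told apart from colony.

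In an insect gene, exons that stay in the mature RNA are separated by introns that are spliced out. Protein is read from the coding part in steps of 3 bases, with untranslated regions on both sides. A gene with a single exon gives a transcript that needs no splicing, so no splice junction fixes its strand or its structure. Gene sets predicted from sequence often stop at the start and stop codons, whereas models assembled from reads also cover untranslated regions.

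The members were of 2 kinds. The first kind were 16521 official models (89.9%), with 16511 distinct gene names, that the merge of assemblies carried into the file as they stood. The second kind were 1865 models assembled from the reads, here called assembled copies, and each of them copied a different official model that was also in the file. In 1 of the 16521 official models the file named another official model as the nearest reference. Both strands were represented about equally, with 9277 members on the plus strand and 9109 on the minus strand. An official model is thus in the file whether or not the antennal reads covered it, and only an assembled model is evidence of reads at its place. Of the 5874 introns of the copies, 131 had under 50 bases, and 646 copies began exactly at the official start. Whether the official gene set guided the assembly was not stated, so a copy is no independent evidence of each intron and end it shares.

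Official models behaved as coding sequences without untranslated regions. Their spliced length, the sum of the exons, was a multiple of 3 in 14877 of 16521 (90.0%), in 90.9% of those with 1 exon and in 89.7% of those with several. Among assembled copies it was a multiple of 3 in 646 of 1865 (34.6%). The length of an official model is therefore called coding length below. The name is kept for models whose length is not a multiple of 3, such as SINV18248, SINV17077 and SINV23483.

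The typical official model had 3 exons (median; quartiles 1 and 5). Single-exon models made up 4527 of 16521 (27.4%), models with 2 to 3 exons 33.4%, with 4 to 6 exons 22.4%, with 7 to 10 exons 11.05% and with 11 or more exons 5.77%. At the upper end, 121 models had 20 or more exons. Assembled copies, whose exon number equals that of the model they copy, had the same median of 3 exons, and 26.1% of them had a single exon. They held fewer models with 2 to 3 exons (25.4%) and more with 4 to 6 exons (28.9%) than the official models. Over both kinds together, 5014 of 18386 members (27.3%) had a single exon.

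**Figure D1:**
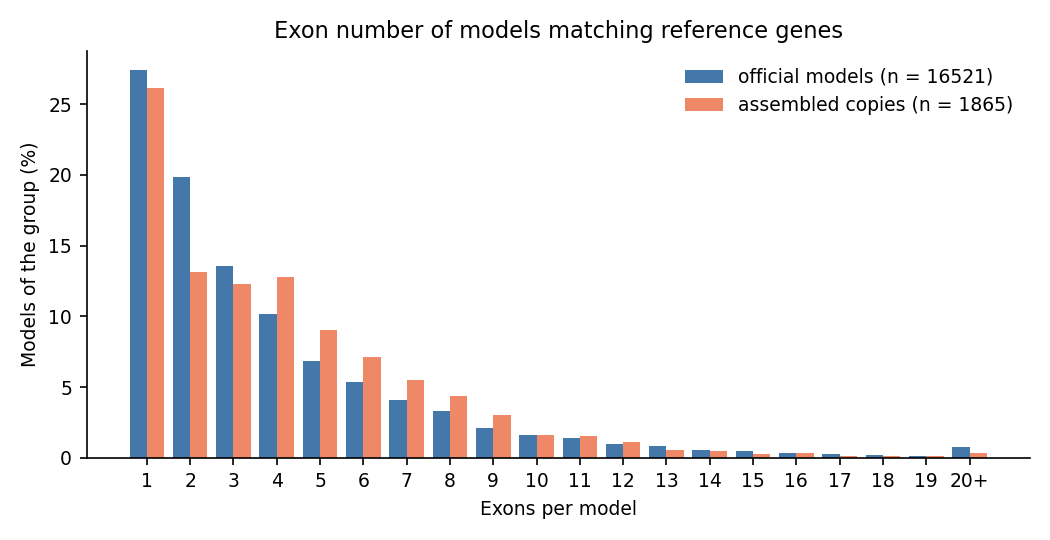
Exons per model (x axis; the last bar pools 20 or more) against the percentage of models of the group (y axis) for 16521 official models (blue) and 1865 assembled copies (orange). Single-exon models are the most frequent class in both groups (27.4% and 26.1%), and official models with 2 exons are more frequent than copies with 2 exons.

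The member with most exons was SINV18248, with 55 exons and a coding length of 11465 bases, on the minus strand of scaffold00042 between bases 1095277 and 1120846. SINV17077 had 53 exons over 12040 coding bases (scaffold00088, bases 67886 to 96052, plus strand), and SINV24247 had 51 exons over 10863 coding bases (scaffold00017, bases 1940705 to 1962719, plus strand). These models were compact, since their longest introns had 1852, 3058 and 757 bases. No assembled model lay at the locus of SINV18248 or of SINV24247, while SINV17077 had 4 assembled forms with other splicing. The sources used here pair none of the SINV names with a function, so no function is given for any of them.

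Coding length differed widely between single-exon and multi-exon models. The median over all official models was 642 bases (quartiles 339 and 1314), with 309 bases for single-exon models (quartiles 219 and 517) and 846 bases for multi-exon models (quartiles 465 and 1527). Coding lengths under 300 bases, which is 100 codons, were found in 47.7% of the single-exon models and in 9.28% of the multi-exon models. The shortest members were 3 single-exon models of 30 bases: SINV15406 on scaffold00002, SINV19106 on scaffold00149 and SINV21442 on scaffold00198. The longest coding sequence, SINV16814, had 21522 bases in 20 exons on the minus strand of scaffold00210 (bases 103439 to 155078).

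One coding length stood out among the single-exon models. Exactly 51 bases, or 17 codons, were found in 190 of 4527 (4.20%), while the next most frequent lengths, 180 and 219 bases, were found in 48 models each. Only 19 single-exon models lay within 9 bases of that length without having it. The 190 models were spread over 87 sequences with at most 14 on any of them, 111 on the plus strand and 79 on the minus strand. Of these, 3 were annotated as the second transcript (suffix RB) of a gene, out of 9 official models with that suffix. An assembled model was assigned to 76 of the 190 (40.0%), against 429 of 1968 (21.8%) of the other single-exon models under 300 bases. Assembled copies, matched here by overlap alone, went the other way, with 7 of the 190 (3.68%) against 156 of the 1968 (7.93%). For 72 of the 190 (37.9%) a class o model, which overlaps the reference in an exon without sharing its structure, was at the same place, against 15.0% of the others. Whether these short models are genes of their own was not tested.

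Inner exons were of a regular size. The 36013 inner exons of official models had a median length of 188 bases (quartiles 131 and 268), beside 154 bases for first exons and 182 bases for last exons, which are cut at the start and stop codons. An inner exon whose length is a multiple of 3 can be skipped without a shift of the reading frame, and 37.0% of inner exons had such a length, with 31.7% and 31.3% leaving a remainder of 1 and 2. In the multi-exon models with a coding length divisible by 3, the 42423 introns fell most often between codons (43.4%), then after the first base of a codon (30.9%) and after the second (25.6%), if the reading frame began at the first base of the model.

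Introns were short. The 48007 introns of official models had a median of 175 bases (quartiles 86 and 493), with 95% at or under 2258 bases. Lengths of 70 to 99 bases were found in 11159 introns (23.2%), and apart from the 5-base introns described below, the single most frequent length was 79 bases, with 514 introns. The median was 191 bases in the models of class j, which share a junction with a reference gene but differ in structure, and 199.5 bases in those of class u, which lie between reference genes. No test of these differences was made, because the classes are defined by their relation to the same genes. Introns under 50 bases made up 4.88% in official models, 0.599% in class j and 0% in class u. Over all members, the introns of at least 50 bases had a median of 191 bases. The medians of these classes are therefore no like-for-like comparison.

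Introns were longest near the start of the gene. In the 6472 official models with 4 or more exons, the first intron had a median of 294 bases (quartiles 107 and 749), the inner introns 152 bases (85 and 413) and the last intron 170 bases (86 and 458). The first intron was longer than the last in 3970 of these models (61.3%) and shorter in 2477 (38.3%). As the official models start at the coding sequence, the first intron here is the first within it, and introns in the 5′ untranslated region are not counted.

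**Figure D2:**
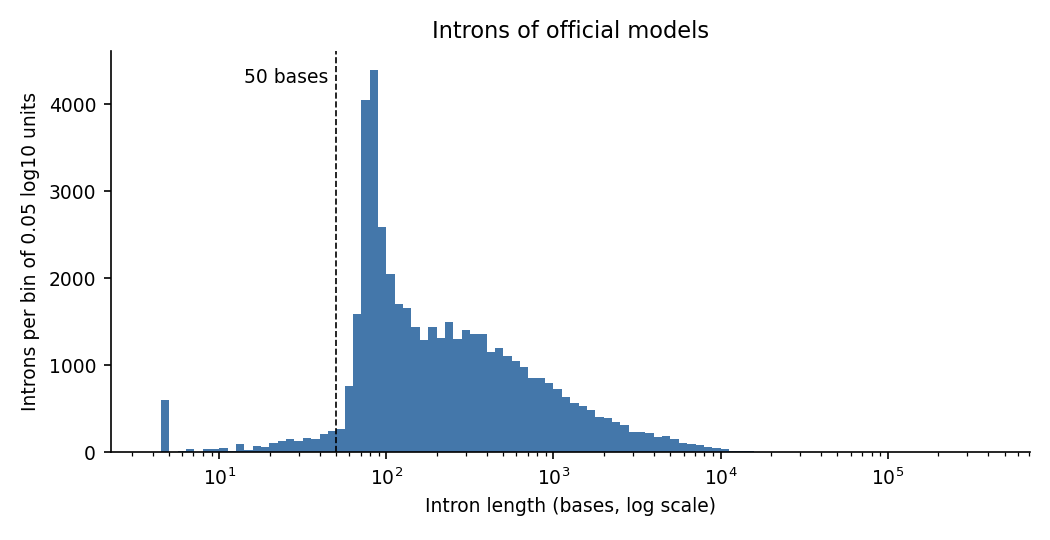
Histogram of the lengths of 48007 introns of official models (x axis in bases on a log scale, bins of equal width in log10 units; y axis, introns per bin), with a dashed line at 50 bases. The main peak lies at 70 to 99 bases, and an isolated bar at 5 bases holds 605 introns.

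Splicing needs a donor site, a branch point and an acceptor site within the intron, which sets a lower limit on intron length. Introns under 50 bases numbered 2342 (4.88%) and occurred in 1893 of 11994 multi-exon models (15.8%). Class j models had 553 under 50 bases (0.599%). The shortest of the 8030 introns of class u models had exactly 50 bases. Whether the assembly set a minimum of that length was not stated. Counts under 50 bases in classes j and u are therefore no comparison with official models. The most frequent length of all was 5 bases, found 605 times in 530 models on 276 sequences. There was no intron of 4 bases or fewer, and there were 22 introns of 6 bases. Of the 5-base introns, 44.0% were the first and 50.4% the last intron of their model, and introns of models with 2 exons count as both. By the same counting, 11994 of all 48007 official introns were first introns and as many were last introns.

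Models with a 5-base intron also differed in other measures that did not enter their choice. Their coding length was a multiple of 3 in 308 of 530 (58.1%), against 10452 of 11464 (91.2%) in the other multi-exon models. No assembled model lay at the locus in 63.6% of them, against 40.4% of the other multi-exon models. That share falls with exon number, and these groups were not matched for exon number or coding length. Introns under 50 bases were also found less often in assembled models. A minimum intron length in the assembly, if set, would by itself lower that share, and its part was not tested. Among official models with an assembled model of their own, 452 of 857 distinct introns under 50 bases (52.7%) occurred in an assembled model, and 27603 of 31133 introns of 50 bases or more (88.7%). The share was highest, 95.7%, for introns of 70 to 99 bases, and was 79.1% at 1000 to under 10000 bases and 62.7% (42 of 67) at 10000 bases or more. An intron in an assembled model need not have been crossed by reads if the assembly was guided by the official set, which was not stated for this file.

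At the other end of the range, 113 official models had an intron of 10000 bases or more. SINV23483 held the longest, 273408 bases, in a model of 4 exons with a coding length of only 514 bases on the minus strand of scaffold00019 (bases 1646453 to 1921744). Within that intron lay 10 other official models. SINV20067 had an intron of 132579 bases and 156 coding bases (scaffold00265, bases 94486 to 227220, minus strand), with 1 official model inside it. SINV20118 had an intron of 105503 bases and 399 coding bases (scaffold00185, bases 124018 to 230807, minus strand), with 2 inside it. No assembled model lay at any of these 3 loci. In all, 35 official models had another official model inside an intron.

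An assembled model of their own was found for 7535 of the official models (45.6%). An assembled copy was present for 1865 of 16521 (11.3%), and for the 487 with a single exon the match is by overlap alone. Another 5670 (34.3%) had only assembled models of another structure that named them as nearest reference. For 1390 (8.41%) the locus held assembled models that were not assigned to them, and 7596 (45.98%) were alone, with no assembled model at the locus. A locus is a group of models that the merge joined by overlap on 1 strand. Absence of an assembled model does not show absence of the transcript, because the merge can absorb an assembled fragment that fits within a reference model.

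The share with an assembled model was higher the more exons a model had. An assembled model of their own, copy or other form, was found for 28.2% of single-exon models, 34.4% of those with 2 to 3 exons, 60.3% with 4 to 6, 73.5% with 7 to 10 and 82.7% with 11 or more. The difference lay in other forms, with 17.5% in the lowest and 72.7% in the highest class. Assembled copies stayed between 8.58% and 14.8% in all 5 classes. This split is partly set by the definitions, since a class j model must share a junction, which a single-exon model does not have, and more introns leave more ways to differ from the official structure. Models that were alone had a median of 2 exons and 477 coding bases. The medians were 4 exons and 1059 coding bases with another form, and 3 exons and 948 coding bases with an assembled copy. Where only another form was present, the median number of class j models for an official model was 1 and the highest number 17.

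**Figure D3:**
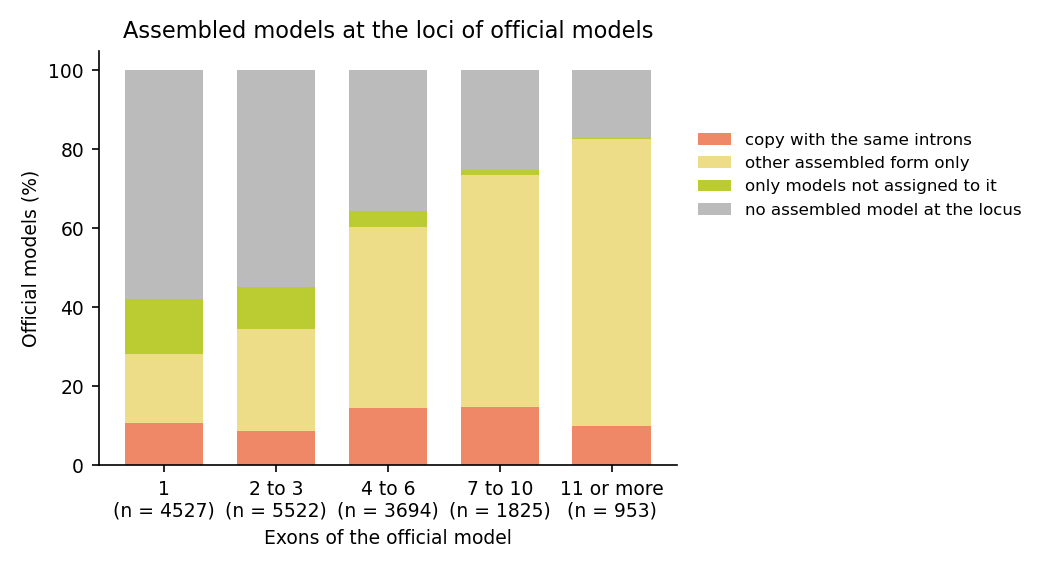
Official models by exon number (x axis, with the number of models) and the percentage (y axis) in each group. Groups are models with an assembled copy, with another assembled form only, with assembled models at the locus not assigned to them, and with none. The share with none falls from 57.9% for single-exon models to 17.1% for models with 11 or more exons, and other forms take up most of the difference.

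Exon number and coding length go together, so the share was also read within bands of coding length. At 1200 bases or more, an assembled model was assigned to 47.4% of 399 single-exon models, 55.8% of 561 models with 2 to 3 exons and 75.3% of 3695 models with 4 or more exons. At 600 to under 1200 bases these shares were 37.9%, 43.7% and 59.7%. The order was the same at 300 to under 600 bases (26.5%, 30.5% and 47.4%). Under 300 bases it was not, with 23.4% for single-exon models, 21.5% for 2 to 3 exons and 1 of 19 for 4 or more. Within each exon class the share was higher at each longer band.

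Assembled copies were much longer than the models they copied. Their spliced length had a median of 3458 bases (quartiles 2331 and 5165), where the same 1865 official models had a median coding length of 948 bases. The ratio of the lengths had a median of 3.17, and a median of 68.4% of a copy lay past the official ends. These values, and the contrast between the ends given next, are affected by a lower bound on the 3′ extension of multi-exon copies (next paragraph). As the introns are the same by the rule, all added sequence is at the ends. The median extension was 133 bases at the 5′ end (quartiles 0 and 573) and 1654 bases at the 3′ end (quartiles 1017 and 2909). The 5′ end lay past the official start in 1209 copies (64.8%) and exactly at it in 646 (34.6%), and the 3′ end lay past the official end in 1843 (98.8%).

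The size of the 3′ extension was bounded below among multi-exon copies. None of the 1378 had a 3′ extension of 600 bases or less, and the smallest was 601 bases. Among the 487 single-exon copies, 33 had a 3′ extension of 600 bases or less. The source of this step was not tested, and the values describe the copies in the file, not the 3′ ends of fire ant genes in general. Models of class j that kept the last intron of their official model showed no such bound, with a median 3′ extension of 1207 bases over 5619 models (quartiles 447 and 2554) and 31.0% at 600 bases or less. Models of class j that kept the first intron had a median 5′ extension of 3 bases over 3508 models, and 49.2% of them began exactly at the official start.

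Single-exon and multi-exon copies differed most at the 5′ end. The median 5′ extension was 533 bases in single-exon copies and 87.5 bases in multi-exon copies, while the median 3′ extensions were 1693 and 1650 bases. The 3′ extension was the longer one in 75.4% of single-exon copies and in 94.1% of multi-exon copies. These shares are not directly comparable, since every multi-exon copy had a 3′ extension above 600 bases. In 17 copies, all with a single exon, both ends were those of the official model.

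**Figure D4:**
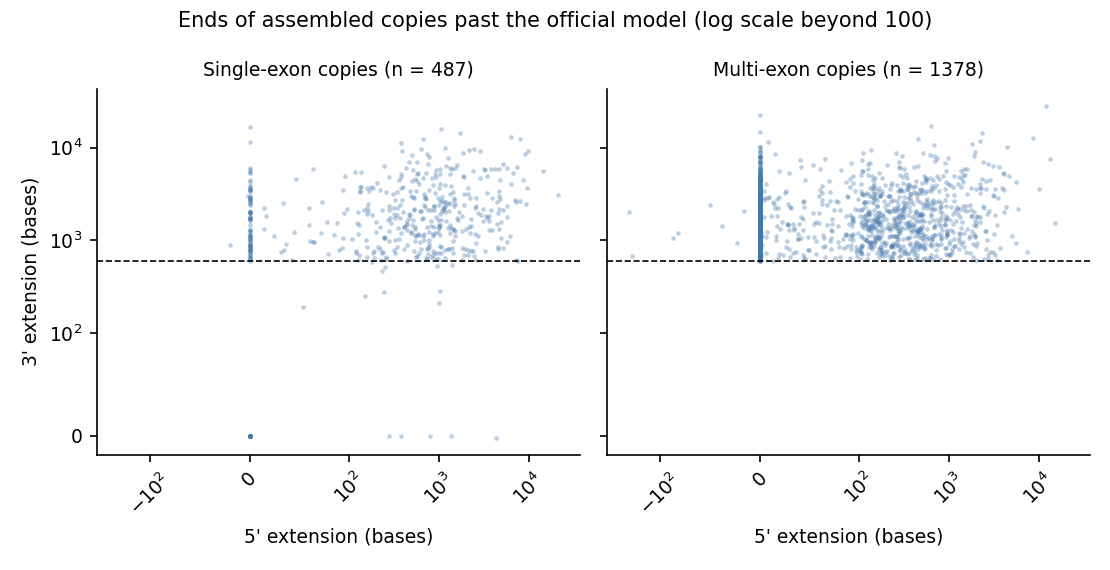
Extension of each assembled copy past its official model at the 5′ end (x axis) and at the 3′ end (y axis), in bases, with a log scale beyond 100 and a linear one below; 487 single-exon copies at left and 1378 multi-exon copies at right. The dashed line marks 600 bases, below which no multi-exon copy lies.

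The largest extensions were many times the length of the official model. The assembled copy of SINV15326 had 40823 bases in 2 exons (scaffold00002, bases 4402974 to 4443946, plus strand) for an official model of 433 bases, with 11955 bases added at the 5′ end and 28435 at the 3′ end. The copy of SINV14962 was a single exon of 25369 bases (scaffold00010, bases 3053762 to 3079130, minus strand) with 20901 bases added at the 5′ end, and it reached an exon of another official model on the same strand. The copy of SINV19391 had 6 exons and 23595 bases (scaffold00028, bases 1637579 to 1664033, plus strand), with 22557 bases added at the 3′ end and none at the 5′ end.

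Assembled copies often reached other official models. Of 1865 copies, 99 (5.31%) reached an exon of another official model on the same strand and 446 (23.9%) one on the opposite strand. The median 3′ extension was 2020 bases in the copies that reached a model on the opposite strand and 1491 bases in the 1333 copies that reached no other model. The strand of single-exon copies cannot be read from splice sites, and whether the libraries kept strand was not stated, so the opposite-strand overlaps are those of the models as deposited.

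Members fell into 14540 of the 37105 loci, with a mean of 1.26 members for each. A single member was found at 11608 loci (79.8%), 2 members at 2385 (16.4%) and 3 or more at 547 (3.76%). The extra members were copies of the same gene or further official models that the merge had joined into the locus. Only 1330 loci (9.15%) held 2 or more official models, and these loci took in 3311 official models (20.0%). In 1277 of the 1330 (96.0%) an assembled model shared exons with 2 or more of the official models. At 7525 loci (51.8%) the official model was the only model of any kind.

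The locus with most members, XLOC_007976, lay on the minus strand of scaffold00010 between bases 1746198 and 1848762. It held 10 members, 9 official models and 1 copy, with coding lengths from 228 to 10080 bases, and 1 assembled model there shared exons with 5 of the official models. XLOC_022097 on the plus strand of scaffold00093 (bases 341577 to 669314) held 7 official models of 210 to 865 coding bases and 2 copies, and 1 assembled model touched all 7. XLOC_030576 on the plus strand of scaffold00264 (bases 163507 to 250341) held 8 official models, 4 of them with a single exon, and 1 copy. An assembled model there touched 7 of the 8. The assembled models at these loci thus crossed the limits of several official genes.

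Neighbouring official models were mostly well separated. Over 14785 neighbouring pairs the median gap was 6110 bases (quartiles 2070 and 17457), and 106 pairs (0.717%) overlapped in span. Both neighbours were on the same strand in 8289 pairs (56.1%), tail to tail in 3302 (22.3%) and head to head in 3194 (21.6%). The tail-to-tail pairs were closest, with a median gap of 4297 bases, and the head-to-head pairs were farthest apart, with 7135 bases. Same-strand pairs lay between, with 6713 bases. Gaps were measured between coding ends, so untranslated regions count as part of them.

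Members were found on 1736 of the 4321 sequences with any model. Their distribution was uneven: 709 sequences held a single member, while the 100 sequences with most member loci held 8068 of the 14540 (55.5%). Relative to the last annotated base of each sequence, which is a lower bound of its length and summed to 323.5 Mb, the density was 44.9 member loci per Mb. The sequences with most member loci were scaffold00002 (273), scaffold00001 (271), scaffold00010 (220), scaffold00009 (216) and scaffold00018 (202). Density among these 5 ranged from 39.6 per Mb on scaffold00001 to 75.3 per Mb on scaffold00018.

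The 67 scaffolds with at least 50 official models varied in each measure. Density ranged from 20.7 to 112 member loci per Mb, with a median of 49.01, and was lowest on scaffold00024 and highest on scaffold00126. The share of single-exon models ranged from 7.69% to 43.9% (median 19.7%), and was highest on scaffold00015. The median coding length of a scaffold ranged from 499.5 to 1212 bases. In 64 of the 67 scaffolds, multi-exon models had an assembled model of their own more often than single-exon models did. The 3 exceptions were scaffold00011, scaffold00045 and scaffold00065, which had between 8 and 24 single-exon models. Single-exon and multi-exon models were not matched for coding length within scaffolds. The direction is also partly set by definition, since a single-exon model has no junction for a class j model to share.

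**Figure D5:**
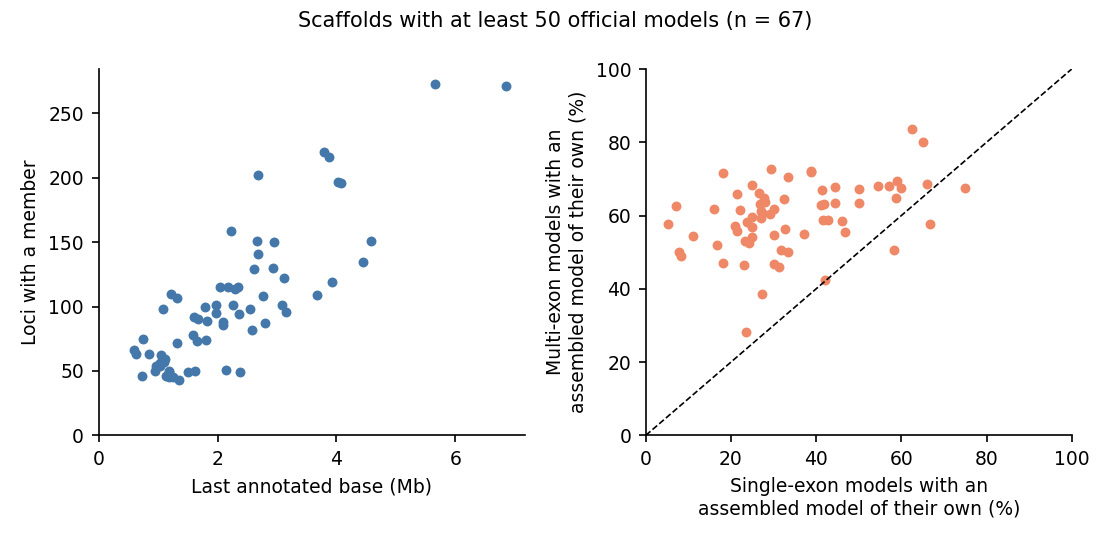
The 67 scaffolds with at least 50 official models, 1 point each. Left, loci with a member against the last annotated base in Mb; right, percentage of multi-exon against percentage of single-exon official models with an assembled model of their own, where 64 of 67 points lie above the dashed line of equality.

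Short sequences carried a different set of models. The 602 contigs with a member held 689 official models, of which 46.01% had a single exon and 77.6% were alone, with a median coding length of 429 bases. On the 1133 scaffolds these values were 26.6%, 44.6% and 660 bases over 15831 models.

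Among the other models in the file, class j models had more exons than the members and class u models fewer. The 12184 class j models had a median of 7 exons and 3800 bases and, by the definition of their class, none had a single exon. The 24008 class u models had a single exon in 89.3% and a median length of 1270 bases, and 83.3% of them had no strand. With a median of 3 exons and 3458 bases, assembled copies were close in length to class j models and had fewer exons.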

How the data were processed

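Per the labels, antennal RNA of workers was amplified (NuGEN Ovation) and sequenced as 3 pooled libraries. The authors deposited 1 file of merged Cufflinks models, by its name from the pooled amplified libraries, with exon positions on assembly Si_gnH. For other libraries the study names TopHat guided by the official gene set, Cufflinks and Cuffmerge. Versions and settings for this file are not given in the sources used here. The deposited expected counts (estimated counts from RSEM, not normalized by the authors) served only for library totals. The study counts 15589 genes in its official gene set, whereas the members carry 16511 gene names. Whether both belong to the same release was not stated. Of 16511 member gene names, 0 matched identifiers of the expression tables (SINVm1_gene and others) and 0 matched a name in the RefSeq table made from UNIL_Sinv_3.0, so no member has an expression value or a gene name here.

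Exons were read with Python 3.11.15 (NumPy 2.4.6, SciPy 1.17.1), checked on 200 simulated models. Introns were the gaps between exons, and extensions were measured along the strand. Statements are counts and medians over models, which are not replicates, so no p-values were computed. Named members were those with most exons, greatest spliced length, longest intron or shortest single exon, loci with most members and sequences with most member loci; the single longest coding sequence, the 51-base models, the 5-base introns and scaffolds at the ends of a range were added after their values were seen. The members and lists were chosen with earlier results of these data known.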

Additional observations from a re-analysis of the deposited data

How the results depend on the processing

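Of the values over all members, the share of single-exon models was 27.3%, 26.5% with 1 member per locus (the longest), 26.1% in assembled copies, 23.6% on sequences with at least 50 models and 26.5% without the official models of 51 bases. The median spliced length depended most on which models were counted: 750 bases over all members, 821 with 1 member per locus, 969 in multi-exon members, 642 in official models and 3458 in assembled copies. The median exon number was 3, and 4 in multi-exon members. The median exon length was 193 bases, and 189 for inner exons. The median intron length was 175 bases, and 191 for introns of at least 50 bases. The median 3′ extension of copies was 1654 bases, and 1491 without copies that reached another official model. Other alternatives tried were distinct structures, exons or introns and the other measure of sequence length. Under these, values stayed within their 95% intervals or within 1.5 times. The intervals are over models, which are not replicates, and measure no spread between samples. The alternatives with official models only, without 51-base models, without overlapping copies, and with exonic overlap in place of the locus (45.98% of official models alone in each case) were chosen after seeing the data. The planned shares of members detected, their TPM by exon number and their 2-fold differences between libraries were not run, because member names and expression identifiers do not join. No paired analysis was possible because the models are pooled over libraries and each class has 1 library. Lengths of sequences are lower bounds, and coverage behind a model is unknown.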

Other observations

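One member pair lay on the mitochondrial sequence, which in insects carries genes without introns. The official model SINV23059 had 5 exons and 685 bases there (bases 10219 to 11142, minus strand), with introns of 83, 41, 43 and 72 bases. Its assembled copy had the same introns and ran from base 2 to base 15548, the last annotated base of that sequence, so that 15308 bases of it counted as exon.

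The share of official models that were alone varied from 18.0% to 68.4% over the 67 scaffolds with at least 50 official models (median 38.2%). It was highest on scaffold00042, where 68.4% of 95 official models were alone and 28.2% of 78 multi-exon models had an assembled model of their own. The next highest was scaffold00046 with 60.5%. The single-exon share (17.9%) and the median coding length (885 bases) of scaffold00042 were near the medians of these scaffolds, 19.7% and 861 bases. Which of the 3 libraries contributed reads there cannot be read from pooled models.

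Scaffold00015 had the highest share of single-exon models (43.9%) together with one of the lowest shares of models that were alone (20.1%). Of its 72 single-exon models, 62.5% had an assembled model of their own, against 28.2% of all single-exon models. Among scaffolds with at least 50 official models, the others with the most single-exon models (35.1% to 42.7%) varied in this share. It was 66.0% on scaffold00012, 65.0% on scaffold00103, 58.8% on scaffold00023 and 57.1% on scaffold00039. Lower shares were found on scaffold00001 (46.7%), scaffold00047 (42.1%), scaffold00005 (41.9%), scaffold00026 (41.7%) and scaffold00033 (24.2%). The 51-base models accounted for 7 of the 72, and the share of single-exon models was 41.4% without them. On scaffold00039, with the second highest share, it was 42.7% with and 35.6% without 9 such models.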
